A study of Homo sapiens with 2 samples.

Results

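The NRF2, glutathione and thioredoxin genes are 59 genes of the antioxidant defence, taken by gene symbol from a list of names. The list was chosen with earlier results of these data known, so the shares of called genes are descriptive only. All 59 genes were among the 17054 genes with a value in the deposited table. They were measured by RNA-Seq in HCT116, an established human colorectal carcinoma cell line. Cells in normal medium gave 1 library, and cells deprived of glucose (0 mM) over 24 h gave the other (glucose deprivation). The labels give the genotype of both as wild type, while the table's column names carry the suffix NC that the study uses for its control cells. For the description the 59 genes were divided into 11 roles, which are the regulators, glutathione synthesis and recycling, glutathione degradation, glutathione transferases, glutathione peroxidases, the thioredoxin system, peroxiredoxins, dismutases and catalase, heme and iron, NAD(P)H reductases and other NRF2 targets.

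As background, NRF2 (encoded by NFE2L2) is a transcription factor that KEAP1 holds at a low level by presenting it for degradation, and that escapes when oxidants or electrophiles modify KEAP1. NRF2 pairs with a small MAF protein on antioxidant response elements and drives genes for glutathione synthesis, thioredoxin reduction, heme breakdown, iron storage and the export of conjugates. Glutathione, a tripeptide built from glutamate, cysteine and glycine, and thioredoxin pass electrons from NADPH to the peroxidases that remove hydrogen peroxide and lipid peroxides. Much of this NADPH comes from the pentose phosphate pathway, which starts from glucose.

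The table holds a log2 fold change for each gene, glucose deprivation over normal medium, and no value of either library alone, so that levels, depth and intervals are unknown for every gene described here. No replicate was measured in either condition, and all values describe these 2 libraries. The cell type could not be checked against its markers without levels. The direction follows how the column is named, so a negative value stands for less transcript under deprivation, and the 41 genes that the study lists as both downregulated under glucose deprivation and enriched in its screen all have negative values. A gene is called higher above a fold of 1.2 and lower below -0.75 on the log2 scale, the sizes given in the study's methods, and in either case only with a false discovery rate (FDR), deposited by the authors from a Poisson test, of at most 0.001. Such a test addresses the reads of these libraries and not the conditions. Because the sizes are unequal, the number of higher genes is not comparable with that of lower genes. The median of all genes was -0.12, and distances from the middle of the table are therefore 0.12 higher than the printed values.

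Glucose deprivation came with a divided picture among the redox genes: most regulators, the enzymes that make glutathione, TXNRD1, HMOX1 and ferritin were higher, whereas 3 peroxiredoxins, both superoxide dismutases, catalase and 4 glutathione transferases were lower. Of the 59 genes, 20 were called higher, a share of 33.9% against 15.9% of all genes with a value. Another 11 were called lower (18.6%, with 13.1% among all genes), and 28 were neither. At the larger size of 0.75 asked of an increase, 14 of the 59 were higher, or 23.7%, against 6.85% of all genes. The FDR was passed by 45 of 59, or 76.3%, against 44.9% of all genes, and it depends on read numbers that are unknown here. Among genes that passed the FDR, 44.4% of the redox genes and 35.4% of all genes were higher, and 24.4% and 29.2% were lower. The median of the 59 was -0.15, close to that of all genes, and their middle 50% ran from -0.63 to 0.82, while that of all genes ran from -0.67 to 0.35. The number of lower genes depended on the scaling of the libraries. After centring on 15 commonly used reference genes, whose median was -0.35, 21 redox genes were higher and 2 lower, in place of 20 and 11. The 2 that were still lower were CHAC2 and GSTA4. Of the 59 genes, 9 ranked within the top 1000 of the 17054 genes with a value. One of these 9 was CBS (rank 178), which did not pass the FDR.

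**Figure D1:**
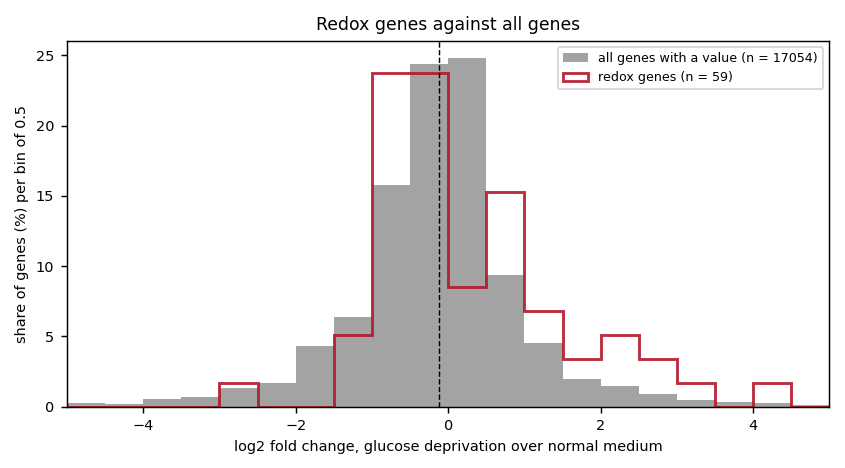
Distribution of log2 fold changes (x axis, glucose deprivation over normal medium, 1 library each) for all 17054 genes with a value (grey) and for the 59 redox genes (red line), as the share of genes in percent per bin of 0.5 (y axis). The dashed line is the median of all genes (-0.12) and the axis runs from -5 to 5, which leaves out 71 genes. The redox genes peak below 0 and have a second group of genes above 0.5.

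The regulators of the pathway were higher in 5 of 7 cases and lower in none, with a median log2 fold change of 0.64. MAFF, a small MAF protein that binds DNA as a partner of NRF2 and has no activation domain of its own, stood at 2.19, a level 4.55-fold higher under glucose deprivation. Its relatives MAFG and MAFK were also higher, at 0.87 and 0.63. NFE2L1, the membrane-bound relative of NRF2 that controls proteasome genes, was higher at 1.27, and NFE2L2 itself at 0.64, a fold of 1.56. Thus all 3 small MAF genes, NFE2L1 and NFE2L2 passed the thresholds, but NFE2L2 and MAFK stood below 0.75. KEAP1 had a value of -0.29, called neither, which became 0.05 after centring on the reference genes. BACH1, the heme-sensitive repressor that competes for the same elements, had 0.22 with an FDR of 0.019.

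**Figure D2:**
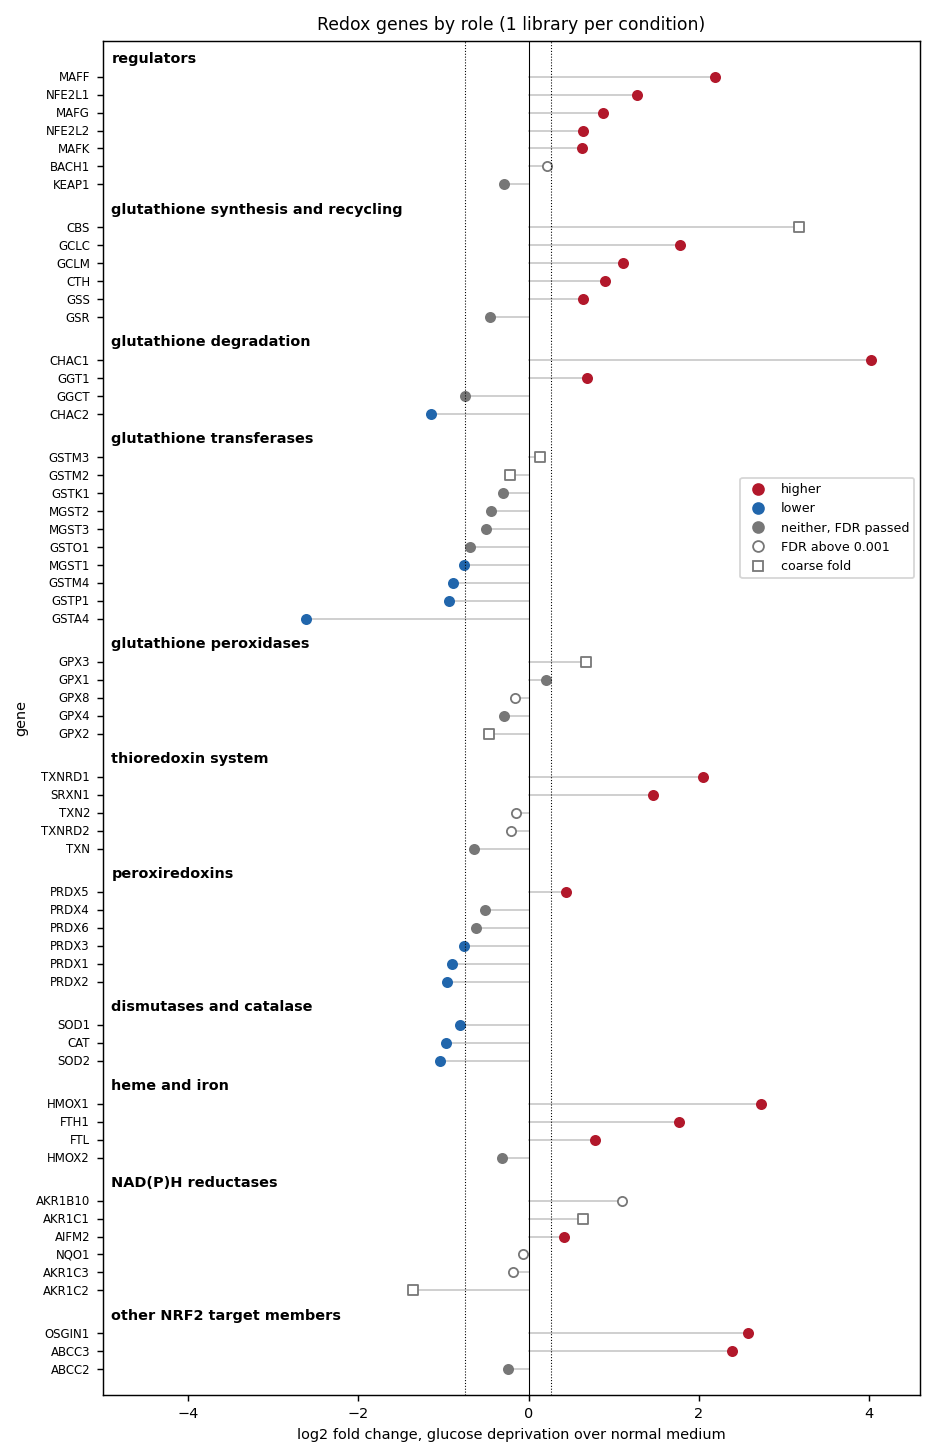
Log2 fold change (x axis, glucose deprivation over normal medium, 1 library each) of each of the 59 redox genes (y axis), grouped by role. Red and blue points are genes called higher and lower, filled grey points passed the FDR but neither size, open points have an FDR above 0.001, squares mark coarse folds, and dotted lines mark both sizes. CHAC1 at 4.02 is the highest value and GSTA4 at -2.61 the lowest.

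Glutathione synthesis was higher at each of its enzymatic steps. GCLC, the catalytic subunit of glutamate-cysteine ligase, which carries out the rate-limiting step, had a log2 fold change of 1.78, or a 3.43-fold higher level. The modifier subunit GCLM stood at 1.11 and the glutathione synthetase GSS at 0.63, so that the catalytic subunit exceeded its partner by 0.67 on the log2 scale. CTH, which releases cysteine from cystathionine, was higher at 0.90. CBS, the enzyme before CTH in the transsulfuration pathway, had a value of 3.17 that did not pass the FDR (0.0069). Its fold is 9 to 1 in whole numbers, so its size is coarse. GSR, which returns oxidised glutathione to its reduced form with NADPH, was not among the higher genes and had a value of -0.45.

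The GCLM promoter is printed as an example from a higher gene whose window holds the core of the element that NRF2 and its MAF partners bind. Whether this element is bound or plays a part in the value of GCLM was not tested. The sequence is the 250 bases before the RefSeq start of GCLM, 5′ to 3′ on the gene's strand, at chr1:93909431-93909680 on the minus strand of GRCh38.p14, with the antioxidant response element core (TGACNNNGC on either strand) in capitals:
GCLM: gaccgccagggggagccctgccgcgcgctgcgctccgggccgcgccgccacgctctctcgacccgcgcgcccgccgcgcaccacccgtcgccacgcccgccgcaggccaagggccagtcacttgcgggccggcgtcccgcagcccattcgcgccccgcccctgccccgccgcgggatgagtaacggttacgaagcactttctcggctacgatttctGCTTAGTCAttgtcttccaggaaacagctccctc

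Degradation of glutathione was split between paralogs. CHAC1, a gamma-glutamylcyclotransferase that cleaves glutathione inside the cell and a known target of ATF4 in the amino acid and endoplasmic reticulum stress responses, had a value of 4.02, a level 16.2-fold higher under glucose deprivation. It was the highest of the 59 and ranked 84 of the 17054 genes from the top. Its paralog CHAC2 was lower at -1.15, a level 2.22-fold lower, so that these genes lay 5.17 apart on the log2 scale. GGT1, which breaks down glutathione outside the cell, was higher at 0.69, and GGCT, which acts on gamma-glutamyl amino acids, just missed the size asked of a decrease at -0.748.

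The CHAC1 promoter is printed because it was the only one of the 46 genes with a promoter searched with the strict form of the ATF4 element. The 250 bases before its RefSeq start lie at chr15:40953221-40953470 on the plus strand of GRCh38.p14, with the match in capitals:
CHAC1: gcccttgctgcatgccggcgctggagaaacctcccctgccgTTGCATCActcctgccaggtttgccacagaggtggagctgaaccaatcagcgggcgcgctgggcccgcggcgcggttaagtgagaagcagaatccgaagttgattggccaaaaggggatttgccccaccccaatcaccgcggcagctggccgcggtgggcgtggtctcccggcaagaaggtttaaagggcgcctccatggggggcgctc

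The match TTGCATCA runs from position -209 to -202, counted from the start. This sequence was found in the same window of 0.967% of all genes with a RefSeq promoter on the main chromosomes, against 2.17% of the 46 redox genes.

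The glutathione transferases, which join glutathione to electrophiles, were lower in 4 of 10 cases and higher in none. The median of the 10 was -0.60, and 9 had negative values, of which those of GSTM2 and GSTK1 turned positive after centring on the reference genes. GSTP1, the cytosolic pi-class enzyme, was lower at -0.94, or 1.92-fold. The mu-class enzyme GSTM4 (-0.89) and the membrane-bound MGST1 (-0.76) were lower as well. GSTA4, which conjugates aldehydes from lipid peroxidation, had the largest decrease of all redox genes at -2.61, or 6.10-fold. Its FDR of 8.4e-05 was the closest to the threshold among the 11 lower genes. The fold is exactly 6.1, a simple ratio although outside the definition of coarse folds, so its size is uncertain. GSTO1 (-0.69), MGST3 (-0.50), MGST2 (-0.44) and GSTK1 (-0.30) passed the FDR but not the size. The values of GSTM2 (-0.22) and GSTM3 (0.14) are coarse and far from the FDR threshold. MGST1 lies just beyond -0.75, and GSTO1 just inside. After centring on the median of all genes MGST1 was no longer called, and after centring on the reference genes GSTA4 alone remained lower in this group.

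The GSTP1 promoter is printed because it holds the same core as that of GCLM although GSTP1 was lower. It covers chr11:67583562-67583811 on the plus strand of GRCh38.p14, with the core in capitals:
GSTP1: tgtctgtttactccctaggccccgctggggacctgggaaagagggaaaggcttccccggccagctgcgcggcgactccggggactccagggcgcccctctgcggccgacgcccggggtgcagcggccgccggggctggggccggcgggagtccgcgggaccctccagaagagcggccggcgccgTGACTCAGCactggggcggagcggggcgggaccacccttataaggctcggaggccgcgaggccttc

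The glutathione peroxidases showed no called gene. GPX4, which reduces phospholipid hydroperoxides in membranes and guards against ferroptosis, stood at -0.29, and GPX1, the main cytosolic peroxidase, at 0.21, both with an FDR below 0.001, and the value of GPX4 became 0.06 after centring on the reference genes. GPX8 of the endoplasmic reticulum had -0.15. The intestinal GPX2 (-0.46) and the secreted GPX3 (0.68) had whole-number folds of 8 to 11 and 8 to 5, and their FDR values of 0.787 and 0.593 were far from passing. GPX1 was called higher after centring on either median, so its place depends on the scaling.

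In the thioredoxin system TXNRD1 and SRXN1 were higher, and the other 3 genes were called neither. TXNRD1, the cytosolic selenoenzyme that reduces thioredoxin with NADPH, stood at 2.05, a level 4.13-fold higher. SRXN1, which repairs overoxidised peroxiredoxins, was higher at 1.46, or 2.75-fold. TXN, the cytosolic thioredoxin, had a value of -0.64, which passed the FDR but not the size. The mitochondrial counterparts TXN2 (-0.15) and TXNRD2 (-0.21) had FDR values of 0.0054 and 0.21, and both stood above 0 after centring on the reference genes. TXNRD1 thus lay 2.25 above TXNRD2 on the log2 scale.

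A TXNRD1 promoter is printed for comparison with that of GCLM, since both genes were higher and both windows hold the core. It covers chr12:104215529-104215778 on the plus strand of GRCh38.p14, and the core in capitals begins 99 bases before the start:
TXNRD1: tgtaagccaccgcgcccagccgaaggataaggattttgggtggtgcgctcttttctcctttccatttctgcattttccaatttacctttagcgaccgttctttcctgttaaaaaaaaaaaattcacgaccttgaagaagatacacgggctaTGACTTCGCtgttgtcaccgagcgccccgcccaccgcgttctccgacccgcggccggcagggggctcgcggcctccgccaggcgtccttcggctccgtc

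The peroxiredoxins, abundant thiol enzymes that take up most hydrogen peroxide in the cell and are mostly reduced by thioredoxin, were lower in 3 of 6 cases. PRDX2 and PRDX1 of the cytosol stood at -0.96 and -0.91, levels 1.95-fold and 1.87-fold lower. The mitochondrial PRDX3 (-0.76) was just past the size, while PRDX6 (-0.62) and PRDX4 (-0.51), an enzyme of the endoplasmic reticulum, passed only the FDR. PRDX5 was the exception and was higher at 0.44, or 1.36-fold. The superoxide dismutases and catalase were all lower. SOD2 of the mitochondrial matrix had a value of -1.04 (2.05-fold lower), catalase (CAT) of the peroxisome -0.97 and the cytosolic SOD1 -0.81. The calls of these genes rest on the scaling: after centring on the median of all genes 4 of the 6 lower ones kept their call, with PRDX3 and SOD1 lost, and after centring on the reference genes none did, although the values of these 6 were still negative.

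Of the 4 heme and iron genes, 3 were higher and none lower. HMOX1, the inducible heme oxygenase that opens the heme ring and frees its iron, had a log2 fold change of 2.73, a level 6.63-fold higher, and was the second highest called gene after CHAC1. Both ferritin subunits, which store iron, were higher: the heavy chain FTH1 at 1.77 (3.41-fold) and the light chain FTL at 0.78 (1.72-fold). The constitutive HMOX2 had -0.31 (0.04 after centring on the reference genes) and was called neither, 3.04 below HMOX1 on the log2 scale.

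The NAD(P)H reductases and export genes did not follow the same course throughout. NQO1, a quinone reductase widely used as a readout of NRF2, had a value of -0.07 with an FDR of 0.029 and was called neither, and it stood above 0 after either centring. AIFM2, which reduces coenzyme Q in the plasma membrane and limits lipid peroxidation, was higher at 0.42. The aldo-keto reductases could not be called: AKR1B10 had 1.09, AKR1C1 0.64, AKR1C3 -0.18 and AKR1C2 -1.36, with FDR values between 0.020 and 0.684. Those of AKR1C1 and AKR1C2 are ratios of 14 to 9 and 7 to 18. OSGIN1, an oxidative stress response gene, was higher at 2.58, or 5.98-fold. Of the exporters of glutathione and glucuronide conjugates, ABCC3 was higher at 2.38 (5.21-fold), and ABCC2 had -0.24 (0.11 after centring on the reference genes).

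The genes around these roles were described by lists that do not overlap with the 59 except where stated. These lists too were chosen with earlier results of these data known. For comparison with the list counts here and below, 15.9% of all genes were higher and 13.1% lower. Among 27 further NRF2 targets with a value, 9 were higher and 1 lower, with a median of 0.17. The cystine transporter SLC7A11 (2.66), the autophagy receptor SQSTM1 (1.76) and the ubiquitin ligase genes TRIM16 (1.65) and TRIM16L (1.61) were the largest. The supply of NADPH was mixed, with 7 of 20 genes higher, 1 lower and a median of 0.10. The folate enzymes MTHFD2 (1.53), ALDH1L2 (2.30-fold) and MTHFD1L (0.81) were higher, whereas IDH2, the mitochondrial NADPH-linked isocitrate dehydrogenase, was lower at -0.98. In the pentose phosphate pathway PGD had -0.41, TKT -0.01 and TALDO1 -0.57, none of them called, and these genes were chosen for naming after their values were seen. Cystine and glutamate supply had 7 of 19 genes higher and 3 lower. Its largest values were those of the glutamate transporter SLC1A3 (-2.78), SLC7A11, its partner SLC3A2 (2.15) and SLC1A4 (1.86), among genes that passed the FDR. In the ATF4 response, which holds CHAC1 and CTH among its 18 genes, 17 were higher and none lower, with a median of 2.42, led by DDIT3 (5.88), NUPR1 (5.42), ATF3 (3.70) and TRIB3 (3.68). Without CHAC1 and CTH, 15 of 16 were higher. SLC7A11 is on the lists of NRF2 targets, cystine supply, the ATF4 response and lipid peroxide defence, so these counts are not independent.

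**Figure D3:**
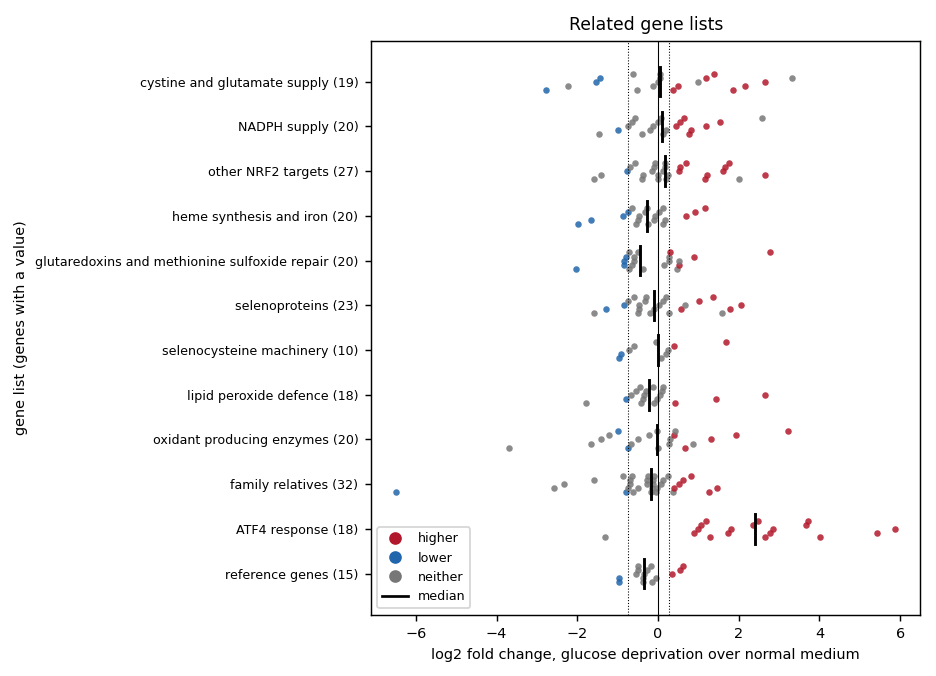
Log2 fold change (x axis, glucose deprivation over normal medium, 1 library each) of the genes in 12 related lists (y axis, with the number of genes with a value). Each point is a gene, red if called higher, blue if lower and grey if neither (genes with an FDR above 0.001 included), black bars are list medians and dotted lines mark both sizes. The ATF4 response has a median of 2.42, and the other lists have medians between -0.44 and 0.17.

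Around heme and iron, 3 of 20 genes were higher and 4 lower, against 15.9% and 13.1% of all genes. BLVRB (1.17), which acts on biliverdin, and ALAS1 (0.91), the first enzyme of heme synthesis, were higher. CPOX (-1.98), a later enzyme of heme synthesis, and the iron exporter SLC40A1 (-1.66) were lower. The other lower genes were BLVRA (-0.86), which also acts on biliverdin, and ACO1 (-0.76), both named after their values were seen. Ferritin and HMOX1 were higher while SLC40A1 was lower, and a link between these values was not tested. The fold of SLC40A1 is exactly 3.15 with an FDR of 0.00051, near the threshold, so its size is uncertain. In the list of lipid peroxide defence, which holds GPX4 and AIFM2, 3 of 18 genes were higher and 1 lower, with SLC7A11, ALOX5 (1.43), DHCR7 (-0.80) and ACSL3 (-0.68) as the largest values outside the 59 that passed the FDR. ALOX5 is a lipoxygenase, which makes lipid peroxides, and ACSL3 was called neither.

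Selenoproteins use selenocysteine in their active site and include 6 of the 59 genes (GPX1, GPX2, GPX3, GPX4, TXNRD1 and TXNRD2). Of these 6, TXNRD1 alone was called, and their median was 0.00. The 4 genes of the same roles that are not selenoproteins (GPX8, TXN, TXN2 and SRXN1) had SRXN1 alone called and a median of -0.15. Among 17 further selenoprotein genes with a value, 4 were higher and 2 lower, against 15.9% and 13.1% of all genes. SEPHS2 (1.77), SELENOS (1.37) and SELENOK (1.02) were higher, and SELENOO (-1.29) was lower. In a list of selenocysteine machinery, not all of which inserts selenocysteine, 2 of 10 genes were higher and 2 lower. Among them were SARS (1.69), EEFSEC (-0.97), SCLY (-0.93) and SEPHS1 (-0.72), of which the value of SEPHS1 was called neither.

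Promoters of 46 of the 59 genes were matched in a RefSeq table of GRCh38.p14, and their 250 bases before the start were searched on both strands. The core TGACNNNGC was found in 11 of the 46 genes, or 23.9%, against 13.2% of all 27305 genes in the table. Of the 11, 5 were higher (MAFF, TXNRD1, GCLM, GGT1 and AIFM2), 2 lower (GSTP1 and GSTA4) and 4 neither (CBS, KEAP1, GPX2 and GSTO1). No promoter was matched for MAFK, GSS, GSR, GGCT, MGST2, TXN2, PRDX1, PRDX6, SOD1, HMOX1, FTH1, AKR1B10 and ABCC3. Of the 46, 15 were higher, 9 lower and 22 neither. The letters were found in genes of every class, and some higher genes, such as GCLC and SRXN1, had no match in this window. Sequence outside the 250 bases was not searched, so a missing match does not show that a gene lacks the element. The ATF4 element TGATGNAA, which contains the strict form on its other strand, was found in CHAC1 and GPX8 only, 2 of 46 genes or 4.35%, against 3.89% of all genes. A match describes the letters and not a bound site. Windows of 30 bases around a single core are shown for AIFM2, which was higher, and for KEAP1 and GSTO1, which were neither. They serve to compare the letters outside the core, which is in capitals. A further core, starting at position -54 in KEAP1 and -161 in GSTO1, is not printed. The windows lie at chr10:70132828-70132857 (minus strand), chr19:10502783-10502812 (minus strand) and chr10:104254656-104254685 (plus strand) of GRCh38.p14.
AIFM2: cagcacgagtGCTGAGTCAcgccccgcccg
KEAP1: gcccggctctGCTTAGTCAtggtgacctgc
GSTO1: ggcggagggaTGACTGAGCatttataactt

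**Figure D4:**
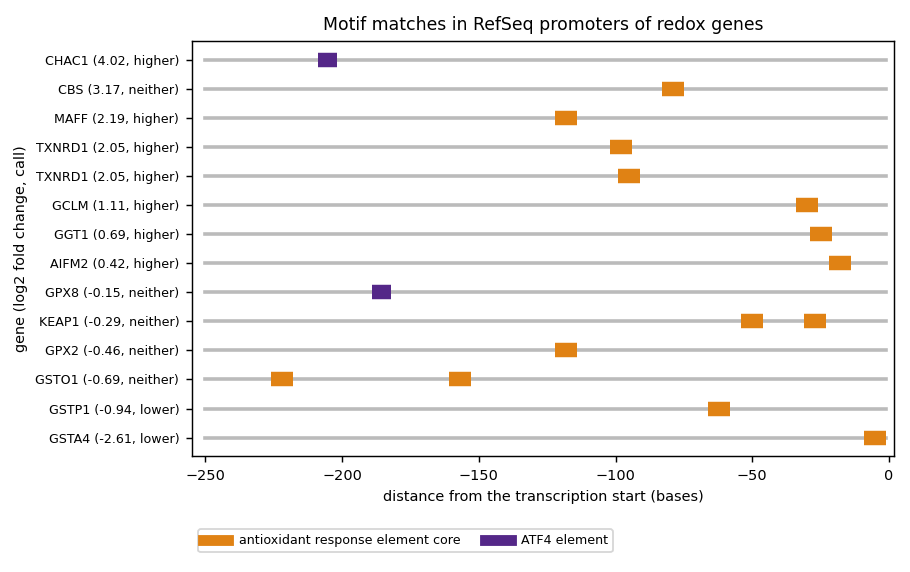
Position of each motif match (x axis, bases from the RefSeq transcription start) in the promoters of the redox genes with a match (y axis, with the log2 fold change and call of the gene). Orange bars are the antioxidant response element core and purple bars the ATF4 element, and TXNRD1 appears with 2 promoters. Matches lie in genes called higher, lower and neither.

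Some values are uncertain because transcripts share sequence with those of other genes. In GENCODE v29 transcripts, 20 of the 59 genes shared no stretch of 50 bases with any other gene, CHAC1, CHAC2, TXNRD1, GSTP1, SOD1, CAT and ABCC3 among them. In 19 genes more than 10% of the stretches were also found elsewhere. The share was 86.9% for CBS, with the copy CBSL, and 84.7% for SRXN1, with an overlapping transcript. It was 48.8% for FTH1, 45.2% for GGT1 and 37.9% for GSTM2. AKR1C1 and AKR1C2 shared 26.6% and 47.0% of their stretches with each other, although their values had opposite signs. The part of shared reads in these values was not tested. Coarse folds, which are ratios of whole numbers of at most 20, were found for 7 of the 59 genes, or 11.9%, against 20.4% of all genes, and none of these 7 passed the FDR.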

How the data were processed

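Each condition of HCT116 cells was represented by 1 RNA-Seq library. The study's methods name MGI2000 sequencing, Bowtie, RSEM and the build mm10, while BWA, Bowtie2 and hg19 are named in the submitters' processing notes, and no versions are given in the sources used here. The authors made the deposited log2 fold change from the expression values of both libraries, and the deposited p-value comes from the authors' Poisson test. The deposited FDR was handled as a score, because 501 of its values exceed 1. These columns are the authors' own comparison and the table has no other measurement, so they were taken as the data. A value was missing for 933 of 17987 genes, none of them among the 59.

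Genes were matched by symbol, and older symbols were used for some genes of the related lists. The members and lists were chosen with earlier results of these data known. The thresholds are those of the study's methods. All 59 genes are named, and from each related list at most the 4 largest values with an FDR of at most 0.001, members left out, beside those said to have been chosen later. Some genes of the related lists are not reported here. Coarse folds were found with a relative tolerance of 1e-07, which was tested on simulated data. Alternatives were other sizes, size alone, a p-value under 0.01, both centrings and the omission of coarse folds. Promoters came from RefSeq (GRCh38.p14) and transcripts from GENCODE v29, with stretches compared on both strands. The planned protein comparison was replaced by these stretches. The table gives no coordinates. Python 3.11.15, numpy 2.4.6, pandas 2.3.3 and matplotlib 3.10.9 were used.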

Additional observations from a re-analysis of the deposited data

How the results depend on the processing

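With the size of 1 on the log2 scale in both directions and the FDR, 11 genes were higher and 3 lower, in place of 20 and 11. Centring on the reference genes left 2 lower. The other settings gave 14 to 24 higher and 8 to 12 lower genes, within 1.5 times of the first counts. The median of -0.15 became -0.039 after centring on all genes, 0.19 after centring on the reference genes, -0.29 over redox genes that passed the FDR and -0.17 without coarse folds. Centring on all genes removed 3 calls (MGST1, PRDX3 and SOD1) and added GPX1, and centring each gene on the reference genes, a setting added after seeing the data, removed 9 and added GPX1. With 0.75 asked of both directions 6 of the 20 higher genes lost their call, NFE2L2, MAFK, GSS, GGT1, PRDX5 and AIFM2. No called gene changed sign under these settings. Leaving out a library was not possible, and depth is unknown. No paired analysis was possible because each condition is represented by a single library.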

Other observations

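Among enzymes that produce oxidants, 5 of 20 genes with a value were higher and 2 lower, against 15.9% and 13.1% of all genes. The endoplasmic reticulum oxidase ERO1B (log2 fold change 1.94) and the NADPH oxidase activator NOXA1 (1.32) were higher, and NOXO1 was lower at -0.996. In the list of glutaredoxins and methionine sulfoxide repair, 4 of 20 were higher and 4 lower, and the sestrins stood apart from each other, with SESN2 at 2.76, SESN1 at 0.89 and SESN3 at -2.04. The sulfoxide reductase MSRB1 was lower at -0.85.

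Of 32 relatives of the redox genes, 6 were higher and 2 lower. OPLAH (1.46), which opens 5-oxoproline, the product of the CHAC enzymes, and the dipeptidase DPEP1 (1.27), which splits the dipeptide left by GGT1, were higher, as was GSTZ1 (0.81). The lower genes were GSTA2 and NFE2L3 (-0.78), a relative of NFE2L2 that was named after its values were seen. GSTA2 was listed at -6.49, a ratio of 1 to 90 in whole numbers, so the size of its difference is uncertain. Of the epithelial markers, KRT8 (-0.23), KRT19 (-0.18) and KRT18 (0.08) were called neither, whereas CDH1 was higher at 1.45, and of the stromal and blood markers with a value none of 5 was called.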
